A study of Mus musculus with 6 samples.

Results

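The 41 genes described here encode the machinery that opens replication origins and copies DNA. They were taken by name from the 54838 genes of the count table and cover the origin recognition complex, its licensing factors, the MCM helicase and its activators, the sliding clamp and clamp loader, the replicative DNA polymerases, the enzymes that join Okazaki fragments and the single-strand binding protein RPA. Their transcripts were measured by sequencing the 3′ ends of polyadenylated RNA in I1DN cells, a murine acute myeloid leukemia of C57BL/6 background that carries IDH1R132H, DNMT3AR882H and NrasG12D in both groups. The alleles had been introduced with constructs into stem and progenitor cells of the fetal liver, and the leukemia was passed into irradiated Ptprca recipients from the frozen cells of a moribund mouse, so the recipients may share a single leukemia. The 3 Vehicle mice received the carrier and the 3 AG636 mice received an inhibitor of dihydroorotate dehydrogenase (DHODH), an enzyme of pyrimidine synthesis, given b.i.d. by gavage at 100 mg/kg. Ages were not given in the sources used here, and the study's texts differ on the length of treatment. Leukemia cells were sorted from marrow and spleen for cKit and low or absent CD11b.

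DNA replication is prepared in G1, when the origin recognition complex, CDC6 and CDT1 load the ring-shaped MCM2-7 helicase onto DNA in an inactive form. At the onset of S phase CDC45, the GINS complex and MCM10 turn this ring into a moving helicase. Polymerase alpha-primase then starts each strand, the RFC complex loads the PCNA clamp, and polymerases delta and epsilon extend the strands. Many of these genes are transcribed under the control of E2F factors as cells pass from G1 into S phase, and dividing blood progenitors and leukemia cells express them strongly. The comparison asks how the transcripts of this machinery stood in leukemia cells of mice given this inhibitor of pyrimidine synthesis.

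Libraries held 4634963 to 7906589 counts assigned to genes, and 3 counts correspond to 0.392 to 0.637 CPM (the count of a gene relative to its library's total, scaled by TMM), counting error only. *Kit*, the sorted surface receptor, had 31.8 to 43.1 CPM with vehicle and 37.3 to 46.3 CPM with AG636, which overlapped, and *Itgam*, which encodes CD11b, had 12.1 to 27.0 and 31.3 to 60.1 CPM, which did not. All 8 transcripts of a mature neutrophil list were detected in each library. Their summed levels were 1033 to 2361 CPM with vehicle and 2879 to 5883 CPM with AG636, most of it *S100a8* and *S100a9*. *S100a8* had 484 to 1339 CPM with vehicle and 1328 to 3150 CPM with AG636, which overlapped, and the other markers of this list did not overlap. The summed levels of 7 erythroid markers were 1641 to 4664 and 1941 to 3221 CPM, those of 7 T and NK cell markers 199 to 332 and 259 to 499 CPM, most of it *Nkg7*, those of 6 macrophage markers 19.1 to 21.4 and 21.7 to 47.4 CPM, and those of 6 B cell markers 6.78 to 14.6 and 14.6 to 19.8 CPM. Of the neutrophil markers 7 of 8 rose past an adjusted p of 0.05, of the macrophage markers 1 of 6 (*C1qb*), and of the erythroid markers 2 of 7 fell and none rose (Benjamini-Hochberg, edgeR). *Klf1*, an erythroid factor gene that fell, had 102 to 228 CPM with vehicle and 53.2 to 80.9 CPM with AG636. The other macrophage and erythroid markers, *Hbb-bs* at a log2 fold change of 0.11 among them, did not pass or had too few counts. Among T and NK cell markers 5 of 7, and among B cell markers 5 of 6, had too few counts to be tested, and of these *Cd3d* was the highest, at 2.45 CPM in an AG636 mouse. The others were *Nkg7*, *Gzma* and *Cd79b*, which overlapped between the groups, *Cd79b* at 5.35 to 19.1 CPM over all 6 mice. The part of these cells in the results below was not tested. In bulk RNA, fewer cells of a type and less RNA per cell cannot be told apart.

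With AG636, 3 of 6 origin recognition genes, 2 of 3 licensing genes, 3 of 6 MCM2-7 genes, 1 of 6 helicase activation genes and 1 of 5 polymerase delta and epsilon genes fell. The genes of polymerase alpha-primase, the clamp, its loader, Okazaki fragment joining and RPA did not pass the test, and the difference between these classes was not tested. All 41 genes had enough counts to be tested, between 257 and 21631 in all 6 libraries together. Of these, 10 fell past an adjusted p of 0.05 (24.4% of the genes, Benjamini-Hochberg, edgeR quasi-likelihood test), where 11.0% of the 11092 genes tested fell. None of the 41 rose past it, where 10.3% of all genes did, and 0 rose at an unadjusted p under 0.05 or in DESeq2 or limma-voom. The median log2 fold change was -0.24 over the 41 genes, 36 of which lay below 0, and 0.03 over all genes tested. The 10 genes that fell were *Orc1*, *Orc2*, *Orc5*, *Cdc6*, *Cdt1*, *Mcm3*, *Mcm5*, *Mcm7*, *Mcm10* and *Pold2*, and their mean CPM were between 23.0% and 43.4% lower with AG636. With total library size in place of TMM, edgeR called 913 genes lower and 1483 higher, against 1222 and 1146, and 7 of the 41 genes lower. The 3 mice of each group did not overlap for 18 of the 41 genes, each time with AG636 lower, where 20.6% of all genes tested were separated in that direction. A separated gene has an exact two-sided permutation p of 0.1, the smallest that 3 mice against 3 allow.

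The number of genes past the threshold rested on single libraries. It was 3 without Vehicle replicate 1, 4 without Vehicle replicate 2 and 0 without AG636 replicate 3, where edgeR gave 10 lower genes at an unadjusted p under 0.05 and called 4.03% of all genes lower. Without AG636 replicate 1, the library with the highest summed neutrophil markers, mostly *S100a8* and *S100a9*, it was 7. The calls over all genes fell as well. EdgeR called 6.18% of all genes lower without Vehicle replicate 1, 6.10% without Vehicle replicate 2 and 5.54% without AG636 replicate 1, against 11.0% with all 6 libraries. The median over the 41 genes lay between -0.32 and -0.18 when any single library was left out.

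**Figure D1:**
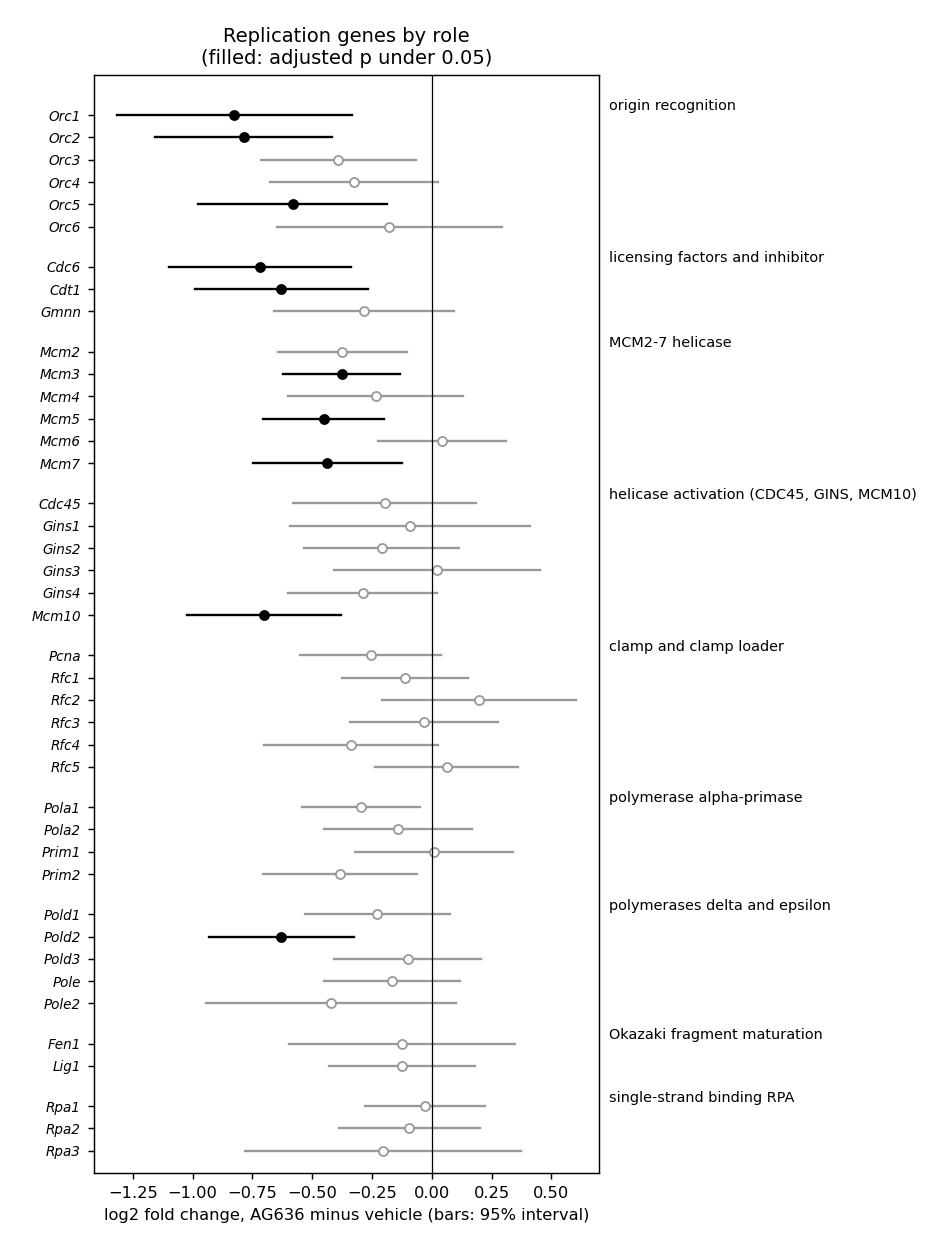
Log2 fold change (AG636 minus vehicle, horizontal axis) of each of the 41 replication genes (rows, grouped by role), with its 95% interval as a bar; filled black points passed an adjusted p of 0.05 and open grey points did not. The filled points lie among the origin, licensing and helicase genes, apart from *Pold2*, and the intervals of every clamp, loader, maturation and RPA gene cross 0.

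The promoters of these genes were searched for the E2F word, since E2F factors are known regulators of the G1 to S transition. Promoters were the 250 bases before and 50 after each start in RefSeq (GRCm38.p6), found by symbol for 33 of the 41 genes and not for *Gmnn*, *Mcm4*, *Gins1*, *Gins2*, *Gins4*, *Rfc2*, *Prim2* and *Pole*. An E2F word was any of TTTCCCGC, TTTGGCGC, TTTCGCGC and TTTGCCGC on either strand, and words may overlap each other, as TTTCGCGC and TTTGGCGC do in *Mcm5* and *Mcm6*. Some genes have several starts, and a gene was counted if any of its promoters held the word. Such a word was found for 15 of 33 replication genes (45.5%) and for 2.60% of the 27025 genes with a promoter of the same length. It was found for 6 of the 10 genes that fell and for 9 of the 23 others. The word TTTGAA of the cell cycle homology region was found for 5 of 33 replication genes (15.2%) against 20.2% of all, and CCAAT for 21 of 33 (63.6%) against 41.1%. Of 19 listed mitosis genes with a promoter, 1 held the E2F word and 14 held TTTGAA. These matches describe letters in the reference and not binding in these cells.

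The promoters of *Orc1*, *Cdc6*, *Mcm3* and *Mcm5*, which fell, and of *Mcm6*, which did not pass the test, are shown 5′ to 3′ because they hold the word whether or not the transcript moved. Capitals mark the E2F words.
Orc1, chr4:108579204-108579503, plus strand: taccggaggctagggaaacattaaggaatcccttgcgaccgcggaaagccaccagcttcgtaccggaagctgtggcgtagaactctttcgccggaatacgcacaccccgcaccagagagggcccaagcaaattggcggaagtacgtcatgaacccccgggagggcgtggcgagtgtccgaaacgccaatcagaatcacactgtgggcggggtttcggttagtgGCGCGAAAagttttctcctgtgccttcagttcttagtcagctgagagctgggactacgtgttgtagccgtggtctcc
Cdc6, chr11:98907901-98908200, plus strand: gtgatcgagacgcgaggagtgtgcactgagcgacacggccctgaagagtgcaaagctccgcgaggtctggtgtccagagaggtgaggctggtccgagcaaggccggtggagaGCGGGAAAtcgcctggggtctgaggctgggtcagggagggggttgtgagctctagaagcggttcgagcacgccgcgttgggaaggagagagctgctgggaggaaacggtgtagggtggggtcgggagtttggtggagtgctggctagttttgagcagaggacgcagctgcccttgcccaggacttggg
Mcm3, chr1:20820263-20820562, minus strand: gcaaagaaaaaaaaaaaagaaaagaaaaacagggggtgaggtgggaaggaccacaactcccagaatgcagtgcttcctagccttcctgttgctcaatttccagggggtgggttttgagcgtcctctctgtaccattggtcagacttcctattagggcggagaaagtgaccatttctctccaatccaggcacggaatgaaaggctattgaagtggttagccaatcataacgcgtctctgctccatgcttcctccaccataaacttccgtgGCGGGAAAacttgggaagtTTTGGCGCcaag
Mcm5, chr8:75109259-75109558, plus strand: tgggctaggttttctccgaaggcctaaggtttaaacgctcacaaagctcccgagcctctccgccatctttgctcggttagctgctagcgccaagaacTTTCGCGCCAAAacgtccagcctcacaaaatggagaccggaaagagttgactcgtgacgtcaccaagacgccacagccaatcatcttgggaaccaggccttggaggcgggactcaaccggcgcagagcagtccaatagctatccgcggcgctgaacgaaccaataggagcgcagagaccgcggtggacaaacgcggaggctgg
Mcm6, chr1:128359656-128359955, minus strand: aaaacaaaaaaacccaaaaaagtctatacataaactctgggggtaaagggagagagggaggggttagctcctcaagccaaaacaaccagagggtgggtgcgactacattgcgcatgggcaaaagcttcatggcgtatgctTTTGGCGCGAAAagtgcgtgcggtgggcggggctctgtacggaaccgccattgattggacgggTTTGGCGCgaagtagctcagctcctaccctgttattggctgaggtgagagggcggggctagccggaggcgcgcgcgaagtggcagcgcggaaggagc

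Counted from the RefSeq start site, with the first transcribed base at position 1, the first E2F word began at -27 in *Orc1*, -138 in *Cdc6*, 20 in *Mcm3* and -153 in *Mcm5*. The *Cdc6* window begins at 98907901, inside the gene span of the count table, which begins at 98907801. Its word at -138 therefore lies within that span, and the bases before 98907901 were not searched. *Mcm6* held 3 words, the first at -110 and the last at -47, more than any other of the 33 genes. *Mcm10*, *Orc2*, *Orc5* and *Pold2* fell and held none of the words in the windows given. The *Mcm10* window ends in TTTGGCG, so a word TTTGGCGC running past its edge could not be seen.

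Mean levels of all 6 origin recognition genes were lower with AG636, and 3 of them passed the test. The median of their log2 fold changes was -0.49. Their products form the ATP-dependent complex that marks origins, with ORC1 as the subunit that comes and goes with the cell cycle. *Orc1*, on chromosome 4 from 108579423 to 108614833 of mm10, had 23.4, 20.9 and 17.6 CPM with vehicle and 12.1, 13.8 and 9.06 CPM with AG636. *Orc2*, on chromosome 1 from 58462771 to 58505109, had 130.3, 101 and 89.9 CPM with vehicle and 59.5, 70.7 and 55.9 CPM with AG636. *Orc5*, on chromosome 5 from 22486485 to 22550429, had 61.7, 48.5 and 45.1 CPM with vehicle and 29.7, 40.4 and 33.6 CPM with AG636. In each of the 3 genes the highest AG636 mouse lay under the lowest Vehicle mouse, with Vehicle replicate 1 at the top. Their log2 fold changes were -0.83, -0.79 and -0.58 (standard errors, SE, 0.22, 0.17 and 0.18), with adjusted p of 0.0272, 0.0122 and 0.0434 (Benjamini-Hochberg, edgeR quasi-likelihood test). *Orc1* had the largest fall of the 41 genes, 43.4% lower in mean CPM. An exon of *Orc2* overlaps *Nif3l1* on the opposite strand, which had 894 counts against 2849, and the use of strand in counting was not given in the sources used here.

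*Orc3* had 55.8, 59.0 and 50.6 CPM with vehicle and 47.6, 38.4 and 40.4 CPM with AG636. Its groups did not overlap, but its log2 fold change of -0.39 (SE 0.15) had an adjusted p of 0.0807 (Benjamini-Hochberg, edgeR quasi-likelihood test). *Orc4* was also separated between the groups, with a log2 fold change of -0.33 (95% interval -0.68 to 0.03). *Mbd5*, on the opposite strand over an exon of *Orc4*, had 298 counts against 1025. *Orc6*, the subunit least tied to the rest of the complex, overlapped between the groups and had -0.18 (95% interval -0.65 to 0.29). *Vps35*, on the opposite strand over an exon of *Orc6*, had 4416 counts against 1616.

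Of the licensing genes, *Cdc6* and *Cdt1* fell and *Gmnn*, which encodes the CDT1 inhibitor geminin, did not pass the test. CDC6 and CDT1 bring the MCM ring to the origin recognition complex. *Cdc6*, on chromosome 11 from 98907801 to 98923940, had 157, 120.3 and 115 CPM with vehicle and 96.0, 66.8 and 75.7 CPM with AG636. *Cdt1*, on chromosome 8 from 122568015 to 122573554, had 247, 208 and 192 CPM with vehicle and 162, 147 and 109.7 CPM with AG636. In both genes the groups were separated, with Vehicle replicate 1 the highest of the 6 mice. The log2 fold changes were -0.72 and -0.63 (SE 0.17 and 0.16), with adjusted p of 0.0182 and 0.0243 (Benjamini-Hochberg, edgeR quasi-likelihood test). *Gmnn* ranged from 78.1 to 109 CPM with vehicle and from 66.8 to 92.8 CPM with AG636, with a log2 fold change of -0.28 (95% interval -0.66 to 0.09).

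Of the genes for the MCM2-7 ring, the motor that unwinds DNA at the fork, *Mcm3*, *Mcm5* and *Mcm7* fell, and *Mcm2*, *Mcm4* and *Mcm6* did not pass the test. *Mcm3*, on chromosome 1 from 20802968 to 20820312, had 529.9, 551 and 552 CPM with vehicle and 463, 382 and 412 CPM with AG636. *Mcm5*, on chromosome 8 from 75109569 to 75128439, had 306, 308 and 283 CPM with vehicle and 239, 200.2 and 217 CPM with AG636. *Mcm7*, on chromosome 5 from 138164583 to 138172422, had 746, 681 and 536 CPM with vehicle and 522, 496 and 432 CPM with AG636. The vehicle mice lay above the AG636 mice throughout, closely so in *Mcm7*, where the lowest vehicle value was next to the highest AG636 value. Log2 fold changes were -0.38, -0.45 and -0.44 (SE 0.11, 0.11 and 0.14) and adjusted p were 0.0362, 0.0221 and 0.0497 (Benjamini-Hochberg, edgeR quasi-likelihood test). With a total library size in place of TMM scaling *Mcm3*, *Mcm7* and *Orc5* no longer passed. *Mcm7* exons overlap *Cops6* on the opposite strand, which had 2421 counts against 19110.

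*Mcm2* had 405, 376 and 374 CPM with vehicle and 333, 299 and 258 CPM with AG636. The groups were separated, and the log2 fold change of -0.37 (SE 0.12) had an adjusted p of 0.0521 (Benjamini-Hochberg, edgeR quasi-likelihood test), just outside the threshold, with *Mcm7* just inside it. It passed in DESeq2, in limma-voom and in 4 other alternatives. *Mcm4* overlapped between the groups, with Vehicle replicate 2 the lowest of the 6 mice, and had -0.24 (95% interval -0.60 to 0.13). *Mcm6*, on chromosome 1 from 128331590 to 128359664, was singled out after its values were seen. It had 454, 395 and 492 CPM with vehicle and 502, 437 and 439.6 CPM with AG636, and AG636 replicate 1 was the highest mouse. Its log2 fold change was 0.04 (95% interval -0.23 to 0.31), and it turned slightly negative in 2 of 14 alternatives.

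The share of *Mcm6* within the ring transcripts does not depend on the scaling of the libraries. It made up 16.5, 15.6 and 19.2% of the summed CPM of *Mcm2* to *Mcm7* in the 3 vehicle mice and 21.6, 21.3 and 22.2% in the 3 AG636 mice. The ratio of *Mcm6* to *Mcm5* CPM was 1.48, 1.28 and 1.74 with vehicle and 2.10, 2.18 and 2.03 with AG636. In both measures all AG636 mice lay above all vehicle mice. Both were chosen after the values were seen and carry no test.

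**Figure D2:**
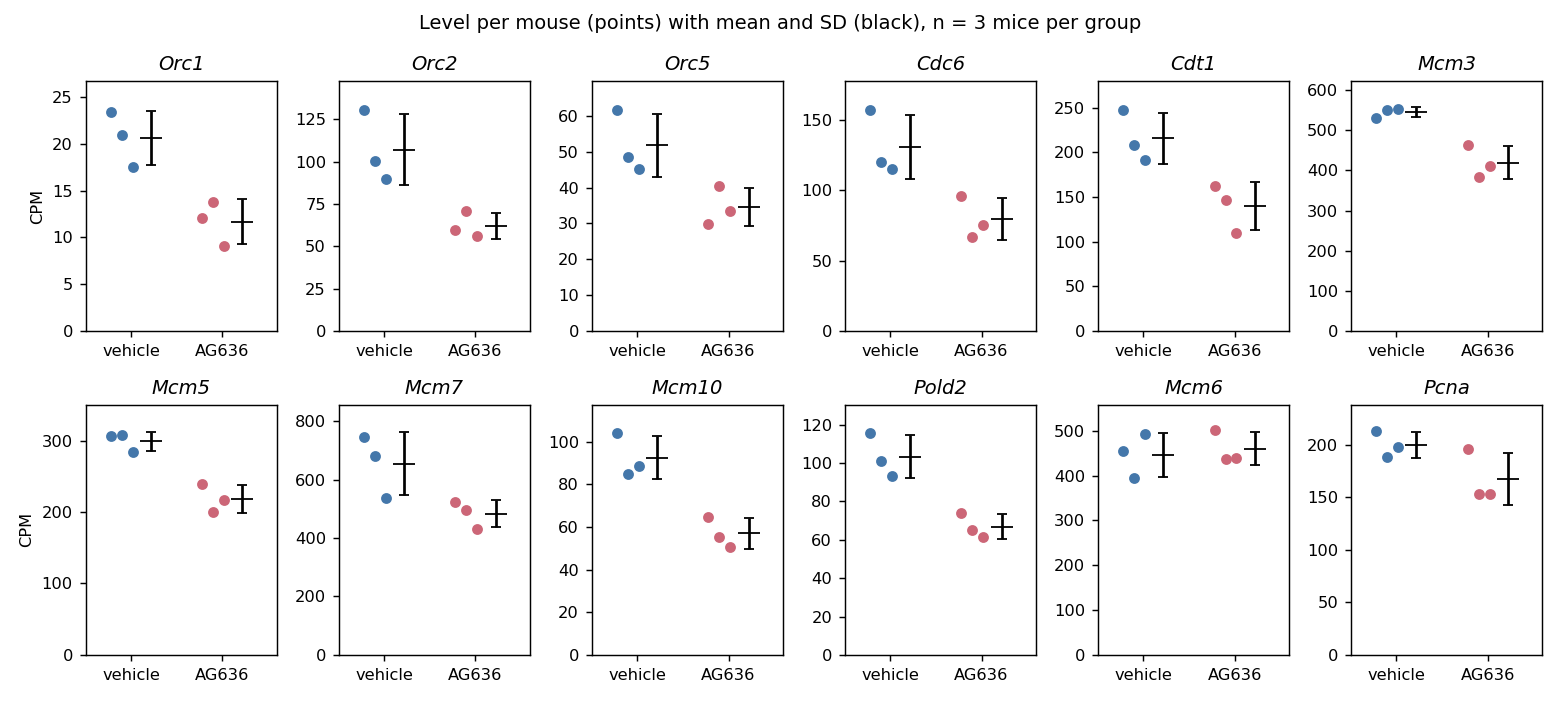
Level in CPM (vertical axis from 0) of the 10 genes that fell, with *Mcm6* and *Pcna* last; blue points are vehicle mice, red points AG636 mice, and black bars the mean and SD of 3 mice. The colours separate in all 10 panels and overlap in *Mcm6* and *Pcna*.

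Among the genes that activate the helicase, *Mcm10* fell and had the lowest adjusted p of the 41 genes. MCM10 is needed for the loaded double ring to split and start unwinding. *Mcm10*, on chromosome 2 from 4989714 to 5012791, had 104, 84.8 and 88.8 CPM with vehicle and 64.8, 55.3 and 50.8 CPM with AG636. The groups were well apart, by -0.70 on the log2 scale with an SE of 0.14 (adjusted p = 0.0115, Benjamini-Hochberg, edgeR quasi-likelihood test). *Cdc45* and *Gins1* to *Gins4*, whose products ride with the ring as the active helicase, did not pass the test. Only *Gins4* was separated between the groups, and log2 fold changes ran from -0.29 for *Gins4* to 0.02 for *Gins3*. Their 95% intervals were -0.58 to 0.19 for *Cdc45*, -0.59 to 0.41 for *Gins1*, -0.53 to 0.11 for *Gins2*, -0.41 to 0.45 for *Gins3* and -0.60 to 0.02 for *Gins4*. The ratio of *Mcm10* to *Cdc45* CPM was 1.77, 1.60 and 1.36 in the vehicle mice and 1.01, 1.22 and 1.14 in the AG636 mice, which did not overlap. This ratio was chosen after the values of both genes were seen, so its separation carries no test. *Cdc45* and *Gins2* each share an exonic stretch with a gene of the opposite strand that had more counts, *Ufd1* with 2488 against 1806 and *Gse1* with 5432 against 1771.

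Of the 5 polymerase delta and epsilon genes, 1 fell. *Pold2*, which encodes an accessory subunit of polymerase delta, lies on chromosome 11 from 5872180 to 5878292. It had 116, 101 and 93.2 CPM with vehicle and 74.1, 65.2 and 61.3 CPM with AG636, without overlap. On the log2 scale the difference was -0.63 with an SE of 0.14 (adjusted p = 0.0135, Benjamini-Hochberg, edgeR quasi-likelihood test). The catalytic subunit gene *Pold1*, whose groups did not overlap, had -0.23 (95% interval -0.53 to 0.08) and *Pold3*, another accessory subunit gene, -0.10 (95% interval -0.41 to 0.21). For polymerase epsilon the catalytic gene *Pole* had -0.17 (95% interval -0.45 to 0.12) and *Pole2* had -0.42 (95% interval -0.94 to 0.10), neither past the threshold.

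Within polymerase alpha-primase, *Pola1*, the catalytic polymerase gene, had 138, 132 and 128 CPM with vehicle and 111, 107 and 106 CPM with AG636. *Prim2*, the large primase subunit gene, had 61.9, 50.5 and 52.9 CPM with vehicle and 41.4, 45.8 and 39.5 CPM with AG636. Neither gene overlapped between the groups, and their log2 fold changes of -0.30 and -0.38 (SE 0.11 and 0.15) had adjusted p of 0.0802 and 0.0843 (Benjamini-Hochberg, edgeR quasi-likelihood test). *Pola2* and the small primase gene *Prim1* overlapped, with -0.14 (95% interval -0.45 to 0.17) and 0.01 (95% interval -0.32 to 0.34).

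The clamp and clamp loader genes did not pass the test in either direction. *Rfc4* came nearest, with 51.7, 50.8 and 48.7 CPM with vehicle and 48.4, 37.3 and 34.0 CPM with AG636. Its groups were just separated, and its log2 fold change of -0.34 (SE 0.16) had an adjusted p of 0.160 (Benjamini-Hochberg, edgeR quasi-likelihood test). *Eif4a2* on the opposite strand shares an exonic stretch with *Rfc4* and had 4916 counts against 1500. *Pcna*, the clamp gene, had 213, 188 and 198 CPM with vehicle and 196, 153 and 153 CPM with AG636, where AG636 replicate 1 lay within the vehicle range. Its log2 fold change was -0.26 (95% interval -0.55 to 0.04). *Rfc1*, *Rfc3* and *Rfc5* lay between -0.11 and 0.06. *Wsb2*, on the opposite strand over an exon of *Rfc5*, had 1074 counts against 5286. *Rfc2* had the highest log2 fold change of the 41 genes, 0.20 (95% interval -0.21 to 0.60), and shares an exonic stretch with *Lat2*, which had 10611 counts against 7479.

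*Lig1*, the ligase that seals Okazaki fragments, had 676, 742 and 622 CPM with vehicle and 726, 626 and 517 CPM with AG636. The groups overlapped, with AG636 replicate 3 lowest, and the log2 fold change was -0.13 (95% interval -0.43 to 0.18). *Fen1*, the flap nuclease gene, had -0.12 (95% interval -0.60 to 0.35) and shares an exonic stretch with *Tmem258*, which had 10149 counts against 4113. *Rpa3*, the smallest RPA subunit gene and the one with the fewest counts, had 9.63, 7.98 and 7.31 CPM with vehicle and 6.16, 8.87 and 6.61 CPM with AG636, which overlapped. Log2 fold changes were -0.03, -0.09 and -0.20 for *Rpa1*, *Rpa2* and *Rpa3*, with 95% intervals of -0.28 to 0.22, -0.39 to 0.20 and -0.78 to 0.37.

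Ordered by stage, 8 of the 15 origin, licensing and MCM2-7 genes fell, with a median log2 fold change of -0.39. Of the 15 helicase activation and polymerase genes 2 fell, with a median of -0.21. Of the 11 clamp, loader, maturation and RPA genes 0 fell, with a median of -0.11. In this last set edgeR gave 0 genes at an unadjusted p under 0.05. Over all genes tested 11.0% fell, and in sets this small 2 of 15 and 0 of 11 lay near that share. The summed CPM of the first set divided by that of the last was 1.75, 1.5 and 1.68 in the vehicle mice and 1.32, 1.41 and 1.33 in the AG636 mice. The stages were formed with the results known, so these values describe the libraries and carry no test. Within the licensing pair, the ratio of *Gmnn* to *Cdt1* CPM was 0.443, 0.375 and 0.526 with vehicle and 0.476, 0.631 and 0.609 with AG636, which overlapped at AG636 replicate 1.

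**Figure D3:**
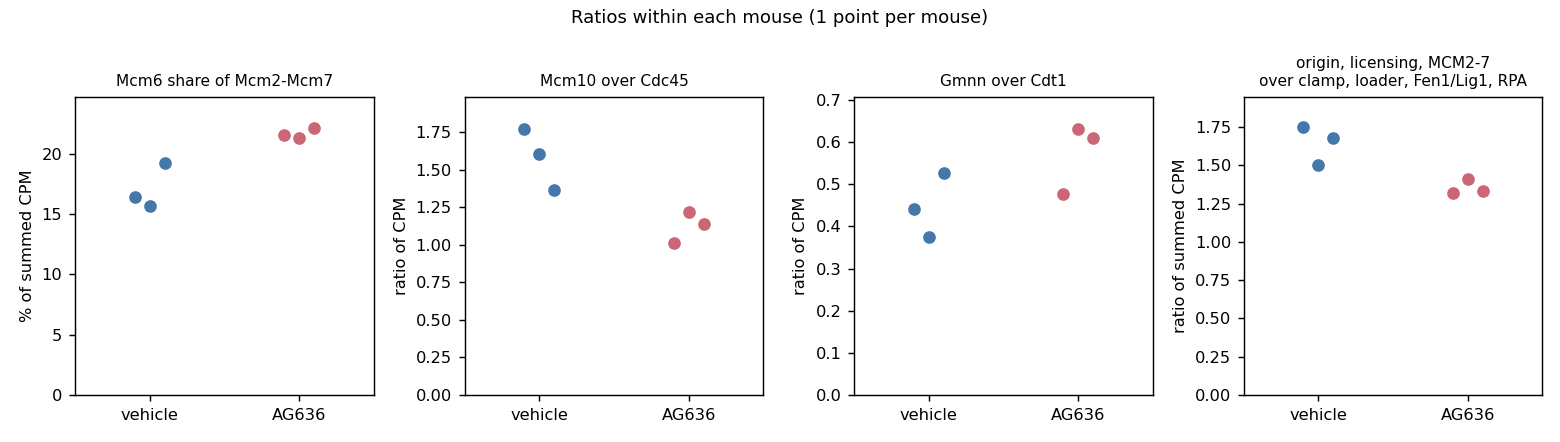
Ratios of levels within each mouse (vertical axes from 0; the first in percent of summed CPM, the others as ratios of CPM), blue for vehicle and red for AG636. The *Mcm6* share is higher in all 3 AG636 mice, *Mcm10* over *Cdc45* and the ratio of origin, licensing and MCM2-7 to clamp, loader, maturation and RPA transcripts are lower in all 3, and *Gmnn* over *Cdt1* overlaps. The ratios were chosen after their values were seen.

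The mice of a group differed in a way shared by many of these genes. AG636 replicate 1 had the highest level of the 3 AG636 mice in 32 of the 41 genes, and AG636 replicate 3 the lowest of all 6 mice in 22. Vehicle replicate 1 was the highest of all 6 mice in 23 genes. The summed level of the 41 genes was 6883, 6431 and 6279 CPM in the vehicle mice and 6079, 5299 and 5126 CPM in the AG636 mice, so AG636 replicate 1 lay close below the lowest vehicle mouse. AG636 replicate 1 also had the highest summed level of mature neutrophil markers, 5883 CPM, mostly *S100a8* and *S100a9* (3150 and 2158 CPM). Of the AG636 mice it was also the highest for *Ltf*, *Ngp* and *Cxcr2*, the middle for *Camp* and the lowest for *Ly6g* and *Retnlg*.

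Other genes of replication were given by lists written for this comparison. Of 26 further fork and initiation factors, 3 fell and 3 rose (11.5% each way, against 11.0% lower and 10.3% higher over all genes tested), so these counts lay near the background. The median of their log2 fold changes was -0.22, and 20 of the 26 lay below 0. The groups did not overlap for 12 of them with AG636 lower and for 3 with AG636 higher. Over all genes tested these shares were 20.6% and 20.5%. *Pold4*, the smallest polymerase delta subunit gene, had 15.7 ± 3.88 CPM with vehicle and 29.6 ± 3.28 CPM with AG636 (SD, n = 3) and rose by a log2 fold change of 0.91, opposite in sign to *Pold2*. *Recql4*, a helicase gene that acts with MCM10 in origin firing, had 21.4 ± 7.85 CPM with vehicle and 9.65 ± 1.24 CPM with AG636 (SD, n = 3) and a log2 fold change of -1.15. Their adjusted p were 0.0174 and 0.0180 (Benjamini-Hochberg, edgeR quasi-likelihood test). Of 13 genes of chromatin assembly behind the fork, 1 fell (7.69%, against 11.0% of all genes) and 0 rose at the threshold, none rose at an unadjusted p under 0.05, DESeq2 and limma-voom each gave 2 lower and 0 higher, and the median was -0.30. That gene was the histone chaperone gene *Nasp*, with 389.7 ± 21.8 CPM with vehicle and 227 ± 33.7 CPM with AG636 (SD, n = 3). The difference on the log2 scale was -0.78, with an adjusted p of 0.00529 (Benjamini-Hochberg, edgeR quasi-likelihood test). *Ssrp1*, a subunit of the FACT histone chaperone, had -0.30 and an adjusted p of 0.0522 in the same test.

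Among 20 genes of the E2F family, the pocket proteins and the S phase cyclins and kinases, 2 rose, near the 10.3% of all genes that did. In edgeR 0 fell, where 11.0% of all genes did, with 5 lower at an unadjusted p under 0.05. Past the threshold, 3 were lower in DESeq2 and 0 in limma-voom. *Rbl2*, the pocket protein p130 that represses E2F targets in resting cells, had 42.4, 43.3 and 42.6 CPM with vehicle and 83.9, 103 and 86.5 CPM with AG636. *E2f7*, a repressive E2F that is itself an E2F target, had 28.5, 33.0 and 40.3 CPM with vehicle and 62.9, 62.5 and 68.7 CPM with AG636. Both genes were clearly separated between the groups, with log2 fold changes of 1.09 and 0.93 (SE 0.13 and 0.16, adjusted p 0.00242 and 0.00570, Benjamini-Hochberg, edgeR quasi-likelihood test). Of 14 deoxynucleotide synthesis genes tested of 15 listed, 3 fell (21.4%, against 11.0% of all genes) and 1 rose (7.14%, against 10.3%), with the lowest adjusted p for *Nme1* at -0.78 and *Dut* at -0.61 on the log2 scale (adjusted p 0.00407 and 0.0146, Benjamini-Hochberg, edgeR quasi-likelihood test). Of 22 mitosis and G2/M genes, 1 fell (4.55%, against 11.0% of all genes) and 3 rose (13.6%, against 10.3%), and the median of their log2 fold changes was 0.12. *Mybl2*, whose product links E2F and later cell cycle transcription, had -0.58, and the mitotic cyclin gene *Ccnb2* had 0.55 (adjusted p 0.0143 and 0.0159, Benjamini-Hochberg, edgeR quasi-likelihood test). Whether these lists differ from the replication genes was not tested.

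**Figure D4:**
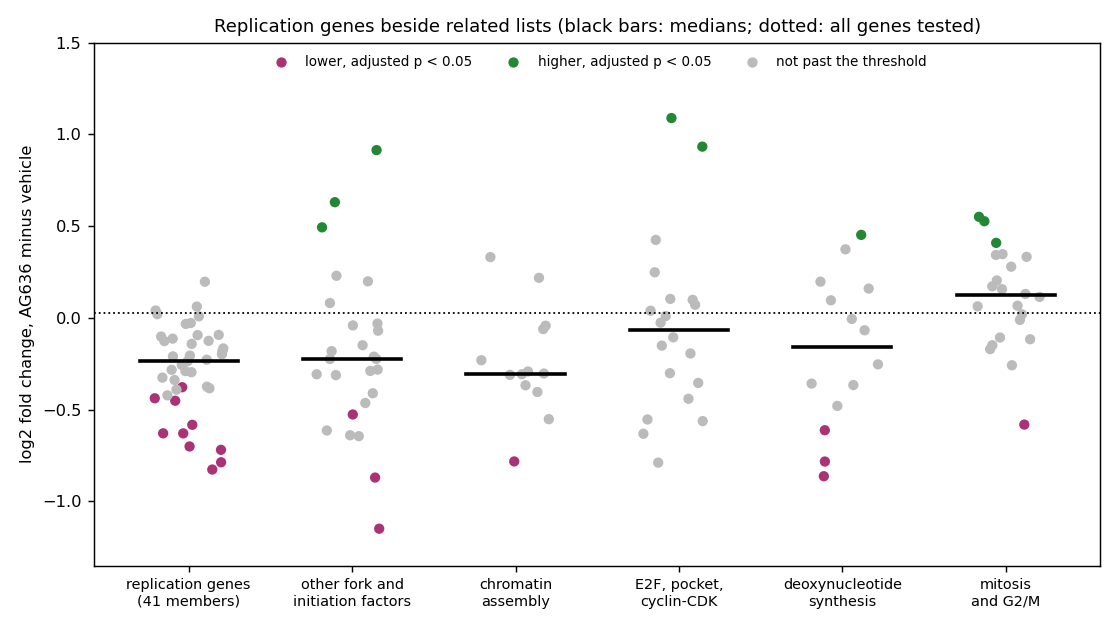
Log2 fold change (AG636 minus vehicle, vertical axis) of each gene tested in the 41 replication genes and 5 related lists; purple points fell and green points rose past an adjusted p of 0.05, black bars are list medians and the dotted line the median of all genes tested, 0.03. The replication genes hold 10 purple and no green points, and the further fork and initiation factors 3 of each, near the shares over all genes tested. Their medians were close, at -0.24 and -0.22.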

How the data were processed

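RNA of sorted leukemia cells from 3 Vehicle and 3 AG636 mice was sequenced from transcript 3′ ends, without molecular identifiers being described. The authors deposited raw read counts per gene, without normalization. The submitters' processing notes name cutadapt 1.9.1, HISAT2 2.0.4, featureCounts of Subread 1.5.0-p3 and GRCm38/mm10, and the study's methods name other versions of cutadapt and Subread. Annotation release, strand use and multi-mapped reads were not given in the sources used here. Counts from 3′ libraries do not scale with gene length, and the deposited gene length, another column, was not used. Sample columns left unused numbered 0. GENCODE M21 gave symbols to 54723 of 54838 identifiers and matched the spans of 40 of the 41 genes.

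Genes were kept by filterByExpr (minimum count 10, minimum total 15), scaled by TMM and tested in edgeR 4.0.16 with the quasi-likelihood model, AG636 against Vehicle, in R 4.3.3; the study used limma, which was run here as limma-voom (3.58.1), with DESeq2 1.42.0 as another alternative. Calls had a Benjamini-Hochberg adjusted p under 0.05 over all genes. Standard errors are the log2 fold change over the root of F, and 95% intervals use the moderated degrees of freedom. Single genes were also compared by an exact permutation test. The fitting was tested on simulated data. Chi-square per degree of freedom between replicates was 6.68 to 15.7, so each library was counted once, and nothing in the labels says that mice of one number belong together.

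The members and lists were chosen with earlier results of these data known. Values per mouse are given for the gene of lowest adjusted p in each role class and the 15 lowest overall; no gene moved against the median at an unadjusted p under 0.05. Of each further list the 2 genes of lowest adjusted p were named. Alternatives were other tools, scalings and filters, thinning to equal totals, a replicate block, leaving out each library, and stricter thresholds. *Mcm6*, *Pcna* and the ratios within mice were chosen after their values were seen. Single values of some marker genes are not reported here.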

Additional observations from a re-analysis of the deposited data

How the results depend on the processing

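The median log2 fold change of the 41 genes stayed below 0 in all 14 alternatives, from -0.32 to -0.15, and none of the 41 rose past the threshold in any. The 10 genes that fell became 11 in DESeq2 and in limma-voom, 7 with library size alone, 6 with a fold of at least 1.5 as well, and 0 at an adjusted p under 0.01 (edgeR, 14 at an unadjusted p under 0.05). Leaving out one library gave 0 to 9 lower genes; *Mcm10*, *Orc2* and *Pold2* each lost the threshold only without AG636 replicate 3, with adjusted p up to 0.0508, 0.0528 and 0.0573 (Benjamini-Hochberg, edgeR). Fewer libraries entered those fits, and the cause of the difference between libraries was not tested. Over all genes, leaving out one library gave 452 to 1298 lower and 399 to 1074 higher genes, and an adjusted p under 0.01 gave 325 and 231. With library size alone 38.1% of calls were lower, against 51.6% with TMM. The replicate block gave 8 lower genes of the 41, with *Mcm3* and *Orc5* no longer past the threshold. Deviations from the group means of samples with the same number correlated at -0.06, -0.18 and 0.22 over genes, so the numbers were not taken as pairs.

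For further fork factors, no filter gave 6 lower and 1 higher, the block 1 higher, an adjusted p under 0.01 gave 0 and 0, and leaving out one library 1 to 6 lower and 0 to 2 higher. For chromatin assembly, 2 were lower in DESeq2, limma-voom, median-of-ratios scaling and without a filter, 3 after thinning, and 1 to 2 lower and 0 to 1 higher when one library was left out. For the E2F list, 3 were lower in DESeq2, 4 without a filter, 2 after thinning and with the block, and 0 to 2 when one library was left out. For deoxynucleotide synthesis, 5 were lower without a filter, 1 lower and 0 higher at 0.01, 0 higher with the fold, and 1 to 4 lower and 0 to 1 higher when one library was left out. For mitosis and G2/M, 0 were lower or higher at 0.01 or with the fold, and leaving out one library gave 0 to 1 lower and 0 to 3 higher. Zeros here are from edgeR; in the main fit 4 mitosis genes, 7 deoxynucleotide genes and 10 fork factors had an unadjusted p under 0.05. With 3 mice a group and a median standard error of 0.15 for the 41 genes, small changes were not detectable.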
